A study of Homo sapiens with 19 samples.

Results

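Chemokines and NF-kB response genes were followed in RNA of A549, an established line of human lung adenocarcinoma cells, before and after nanostraw electroporation (NEE). NEE sets cells on hollow straws of nanometre width and applies short voltage pulses that make the membrane leaky, so that RNA leaves the cells through the straws and the cells live on. They were taken as a list of 10 named genes out of the 62700 genes counted, with no threshold. The list holds the chemokine genes CXCL1, CXCL2, CXCL3, CXCL8, CCL2 and CCL20, the cytokine genes IL6 and IL1A, and the feedback genes NFKBIA and TNFAIP3. All 10 were matched to their Ensembl gene IDs. RNA was measured by Smart-Seq2, which copies polyadenylated transcripts over their full length. The 3 NEE-sampled libraries were technical replicates of RNA sampled by NEE from A549 cells labelled as monolayer. The 16 lysate libraries came from A549 spheroids (balls of cells) and monolayers (flat cultures), each lysed at 4 times (before NEE, right after, at 2 h and at 24 h), with 2 biological replicates in each of these 8 groups. Every group is the same cell line with no other treatment named, and no group that was handled without NEE was analysed here, so time since the start and NEE cannot be told apart. How many cultures stood behind the 3 NEE-sampled libraries is not given, and their p-values rest partly on technical spread.

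NF-kB is a family of transcription factors held in the cytoplasm by inhibitor proteins until signals from receptors for TNF, IL-1 or microbial products trigger the inhibitors' destruction. In airway epithelium NF-kB, often together with AP-1, turns on genes for secreted chemokines that call in neutrophils and monocytes. It also turns on its own brakes, among them NFKBIA, which encodes the inhibitor IkB-alpha, and TNFAIP3, which encodes the ubiquitin-editing enzyme A20. Transcripts of many of these genes are short-lived, because AU-rich elements in them attract decay factors.

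The 4 CXC chemokine genes lie within 358.8 kb of chromosome 4 (GRCh38, GENCODE release 29). CXCL8 spans positions 73740506 to 73743716 and CXCL1 positions 73869393 to 73871242 on the plus strand, and CXCL3 spans 74036589 to 74038807 and CXCL2 74097035 to 74099293 on the minus strand. CCL2 is on chromosome 17 (34255218 to 34257203), CCL20 on chromosome 2 (227805739 to 227817564), IL6 on chromosome 7 (22725884 to 22732002), IL1A on chromosome 2 (112773915 to 112784590), NFKBIA on chromosome 14 (35401511 to 35404749) and TNFAIP3 on chromosome 6 (137867188 to 137883312). All 10 are protein-coding genes, and the values are counts over whole genes.

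The promoters of 6 genes that carry the NF-kB motif are shown, and those of IL6 and CCL20, which carry it too, are not. Promoter sequences from RefSeq (GRCh38.p14), of 250 bases before to 50 after each gene start, matched 9 of the 10 genes, all but CCL2. The motif GGAANNNCC, or GGNNNTTCC on the other strand, was in the promoters of 8 of these 9, all but IL1A, against 20.1% of all 35116 promoters. Its symmetric form GGAATTTCC or GGAAATTCC, a subset of the first motif, was in those of CXCL1, CXCL2, CXCL3, CXCL8 and NFKBIA, against 0.461% of all promoters. For CXCL2, CXCL3, CXCL8 and TNFAIP3 the RefSeq start lies inside the GENCODE span given above, so part of their sequence lies within that span. The lines give positions −150 to −1 before the RefSeq gene start, 5′ to 3′ on the gene's own strand. Each match to GGAANNNCC or its reverse complement is in capitals.
CXCL1, chr4:73869243-73869392 (+ strand): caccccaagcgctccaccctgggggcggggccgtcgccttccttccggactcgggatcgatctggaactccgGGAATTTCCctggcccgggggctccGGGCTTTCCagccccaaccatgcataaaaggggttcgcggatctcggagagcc
CXCL2, chr4:74099196-74099345 (- strand): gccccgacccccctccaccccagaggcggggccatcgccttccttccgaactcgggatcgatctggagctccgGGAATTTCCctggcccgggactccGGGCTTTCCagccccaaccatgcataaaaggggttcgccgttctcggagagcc
CXCL3, chr4:74038690-74038839 (- strand): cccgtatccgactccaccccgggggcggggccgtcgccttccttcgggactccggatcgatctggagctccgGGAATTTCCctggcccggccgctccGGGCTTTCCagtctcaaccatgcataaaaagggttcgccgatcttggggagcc
CXCL8, chr4:73740419-73740568 (+ strand): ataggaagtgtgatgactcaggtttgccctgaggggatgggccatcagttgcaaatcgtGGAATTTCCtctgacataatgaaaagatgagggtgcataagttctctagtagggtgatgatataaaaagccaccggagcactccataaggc
NFKBIA, chr14:35404750-35404899 (- strand): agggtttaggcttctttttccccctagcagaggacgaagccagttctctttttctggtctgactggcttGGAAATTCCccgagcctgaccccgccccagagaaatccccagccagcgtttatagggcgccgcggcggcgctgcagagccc
TNFAIP3, chr6:137867109-137867258 (+ strand): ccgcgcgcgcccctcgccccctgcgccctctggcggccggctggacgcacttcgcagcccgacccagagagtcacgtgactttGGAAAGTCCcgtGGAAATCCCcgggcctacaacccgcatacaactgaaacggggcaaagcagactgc

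CXCL1, CXCL2 and CXCL3 had the same pair of matches in the same order, GGAATTTCC and then GGGCTTTCC, at positions −78 to −70 and −53 to −45 in CXCL1 and CXCL3. Laid side by side without gaps, the windows of CXCL1 and CXCL3 were identical at 86% of positions, and CXCL8 at 27.3% to 29.3% with each of the other 3. CXCL8 had GGAATTTCC at −91 to −83, and upstream of it at −137 to −131 the AP-1 motif TGANTCA, which was otherwise found only in IL1A among the 9 genes and in 7.71% of all promoters. TNFAIP3 carried 2 adjacent matches, GGAAAGTCC and GGAAATCCC, neither of the symmetric form. NFKBIA had GGAAATTCC at −81 to −73. These are matches of letters, not measured binding, and near-identical stretches also occur in the transcripts of CXCL1, CXCL2 and CXCL3, so reads shared between these 3 genes are a source of uncertainty in their counts.

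Total counts ran from 13626934 to 18512985 in the NEE-sampled libraries and from 16031034 to 24571083 in the lysates. Levels are counts scaled to the library's total (CPM), and 3 counts, taken as the floor of detection, correspond to 0.122 to 0.22 CPM. Reads come from PCR without molecular identifiers, so floors and intervals cover counting error only. Differences were tested with edgeR's quasi-likelihood test across all genes, and a gene was called at a Benjamini-Hochberg adjusted p under 0.05. Of 12 epithelial and A549 markers, such as KRT18 and AKR1B10, all were detected in each lysate library. One library stood apart, replicate 1 of the monolayers before NEE. Its 20 leukocyte markers summed to 641.6 CPM, against 36.3 to 112 CPM for the same sum in the other 15 lysate libraries. Not all 20 were high in it. PRF1 was at 203.7 CPM, GNLY at 108 CPM and PTPRC at 91.3 CPM. CD14 was at 0.814 CPM, below the other 15, and LYZ, CD79A and MS4A1 were at 0. The 12 epithelial markers of this library summed to 19070 CPM, against 40120 to 67690 CPM in the other 15. Of the leukocyte sum in spheroids, CD14 was the largest part in each library, at 29 to 85.5 CPM. In spheroid replicate 2 right after NEE it was 46.4 of 108.5 CPM, with PRF1 at 16.6 CPM and GNLY at 9.80 CPM. In bulk RNA fewer cells of a type and less RNA per cell cannot be told apart.

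CXCL1, which encodes a neutrophil attractant acting on CXCR2, was the most abundant chemokine transcript, and its level depended most on the replicate of spheroids. In spheroid replicate 1 it was at 384.1, 359.4, 297.1 and 161.5 CPM before, right after, 2 h after and 24 h after NEE. In spheroid replicate 2 it was at 34.3, 33.9, 51.3 and 21.7 CPM at the same times. The 2 spheroid replicates did not overlap, and replicate 1 was 5.79 to 11.2 times as high as replicate 2 at each time. In monolayer replicate 1 CXCL1 was at 20.9, 25.3, 48.9 and 18.5 CPM, and in monolayer replicate 2 at 38.4, 125.9, 43.1 and 25.8 CPM. Monolayers therefore overlapped each other and spheroid replicate 2, with one high library, replicate 2 right after NEE.

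CXCL8, which encodes interleukin-8, the main neutrophil chemokine of human epithelium, behaved alike in spheroids. It was at 196.4, 159.9, 332.1 and 59.6 CPM over the 4 times in spheroid replicate 1, and at 9.51, 7.66, 44.4 and 14.5 CPM in spheroid replicate 2. Replicate 1 was again above every value of replicate 2, by 4.11 to 20.9 times at matched times. Monolayer replicate 1 had 38.1, 12.6, 46.9 and 6.09 CPM, and monolayer replicate 2 had 10.3, 44.4, 52.4 and 7.86 CPM. In these the order of the replicates changed from time to time.

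TNFAIP3, the A20 feedback gene, was at 79.1, 81.4, 98.6 and 49.8 CPM in spheroid replicate 1, and at 9.96, 6.17, 24.0 and 2.90 CPM in spheroid replicate 2. The ratio of replicate 1 to replicate 2 was 4.11 to 17.2, with no overlap. Monolayer replicate 1 had 21.9, 18.3, 32.4 and 9.77 CPM and monolayer replicate 2 had 8.46, 34.1, 14.8 and 2.90 CPM. CXCL2, a close relative of CXCL1, was at 57.3, 52.6, 52.2 and 26.4 CPM in spheroid replicate 1 and at 3.15, 6.17, 9.67 and 4.89 CPM in spheroid replicate 2. Its values in monolayer replicate 1 were 7.98, 8.20, 11.6 and 3.73 CPM, and in monolayer replicate 2 they were 12.6, 55.9, 8.27 and 2.55 CPM. Only the monolayer library of replicate 2 right after NEE reached the CXCL2 level of spheroid replicate 1. CXCL3, the third of these relatives, was at 23.5, 19.8, 22.4 and 15.7 CPM in spheroid replicate 1, against 3.43, 4.57, 11.7 and 5.17 CPM in spheroid replicate 2. In monolayers CXCL3 was at 4.72, 2.55, 6.94 and 3.50 CPM in replicate 1 and at 6.94, 15.8, 4.504 and 3.35 CPM in replicate 2.

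CCL2, which encodes the monocyte attractant MCP-1, was at 42.5, 43.1, 94.9 and 22.3 CPM in spheroid replicate 1 and at 12.8, 13.2, 53.2 and 13.3 CPM in spheroid replicate 2. Replicate 1 was higher at each time, by 1.68 to 3.32 times, but the 2 sets overlapped because replicate 2 at 2 h exceeded 3 of the replicate 1 values. Monolayers had 18.9, 14.3, 36.3 and 20.3 CPM in replicate 1 and 27.7, 49.7, 36.7 and 18.7 CPM in replicate 2. NFKBIA showed no such split. Its spheroid values were 151.5, 245.7, 206.8 and 173.9 CPM in replicate 1 and 177.7, 196.9, 167.6 and 65.0 CPM in replicate 2, and the ratio ran from 0.852 to 2.68. Its monolayer values were 34.9, 73.5, 142.5 and 170.3 CPM in replicate 1 and 154.6, 221.0, 84.3 and 66.1 CPM in replicate 2.

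IL6, which encodes a cytokine of the acute phase response, was low. Spheroid replicate 1 had 3.27, 2.99, 9.44 and 1.40 CPM and spheroid replicate 2 had 0.225, 0, 0.936 and 0.341 CPM. It was the one gene of the list whose replicate 1 was above replicate 2 in monolayers as well, at 2.24, 0.962, 3.45 and 2.14 CPM against 0.631, 0.9496, 0.297 and 0.701 CPM. CCL20, which encodes the ligand of CCR6, was at 1.22, 1.14, 1.82 and 0.484 CPM in spheroid replicate 1 and at 0 in all 4 libraries of spheroid replicate 2. Summed over the 4 times, 87 counts against 0 put it at least 26.5-fold higher in spheroid replicate 1, with 3 counts over the 4 libraries as the floor. In monolayers CCL20 was at 0 before NEE and 24 h after it in both replicates and at 0.0522 to 0.339 CPM in the other 4 libraries. IL1A, which encodes the alarm cytokine interleukin-1 alpha, was at 0 in 5 of 8 spheroid and 4 of 8 monolayer libraries, and its highest values were 0.796 CPM in spheroids and 0.835 CPM in monolayers.

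**Figure D1:**
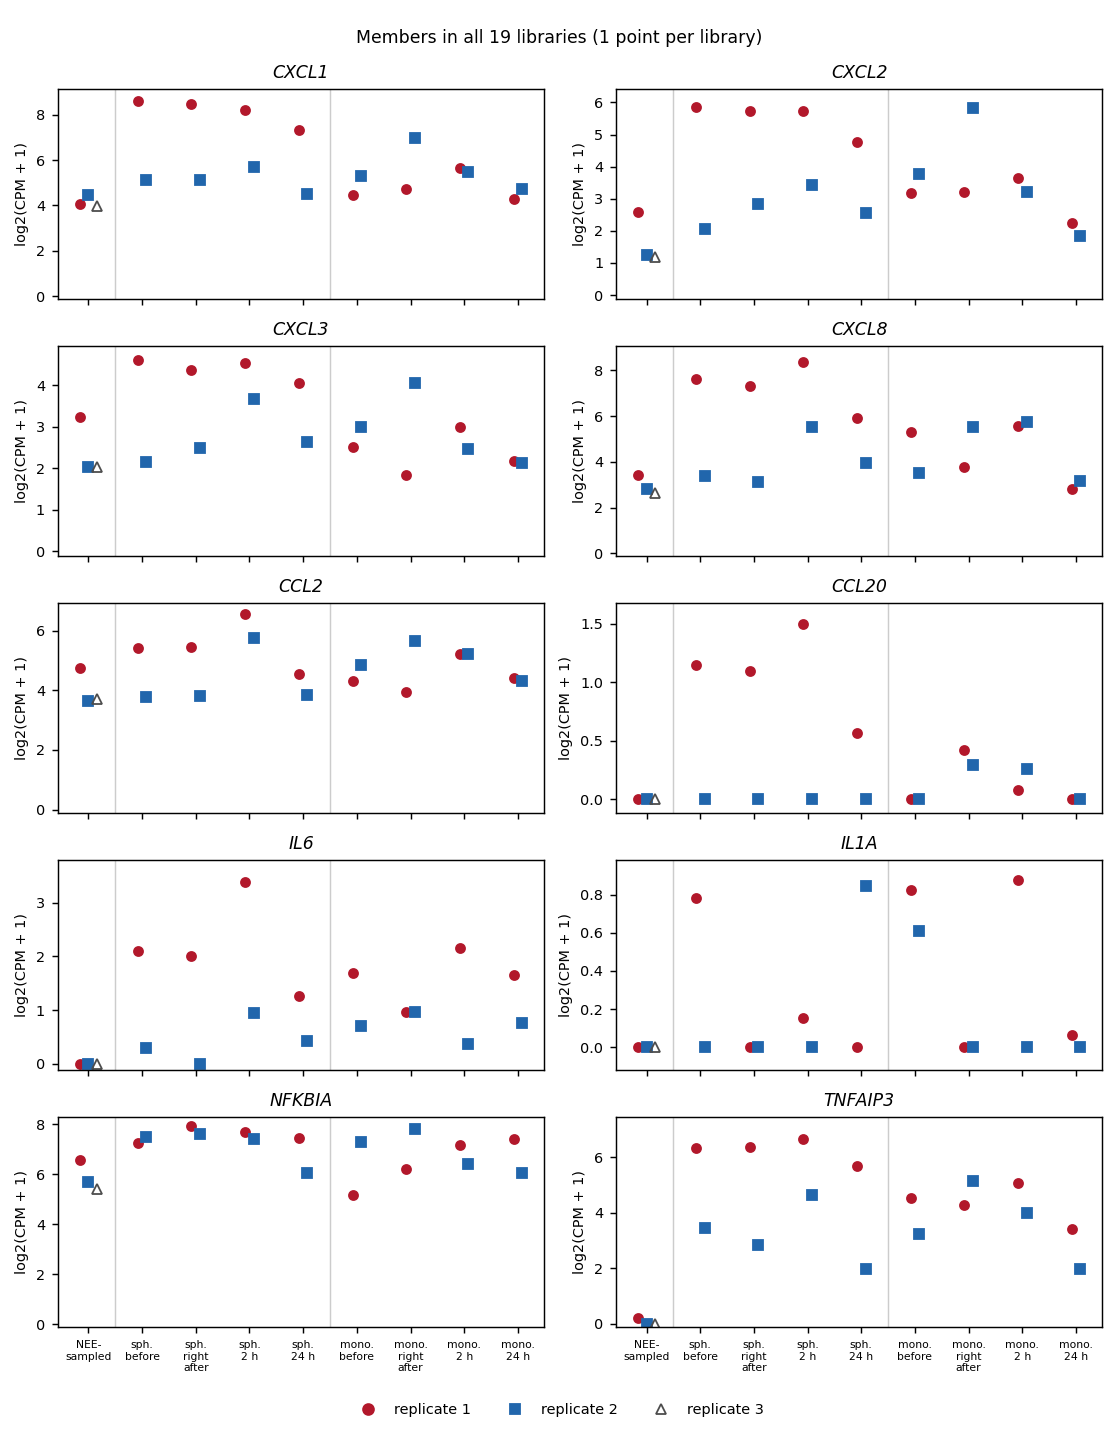
Level of each of the 10 genes in each library, as log2(CPM + 1) on the vertical axis, with NEE-sampled RNA at the left, spheroids (sph.) in the middle and monolayers (mono.) at the right. Each point is 1 library, and colour and shape give the replicate number. In CXCL1, CXCL2, CXCL3, CXCL8, CCL20, IL6 and TNFAIP3 the 4 spheroid points of replicate 1 lie above all 4 of replicate 2.

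Scaled to exon length, which permits comparison between genes, CXCL1 averaged 129.6 CPM per kb in spheroids (SD 120.6, n = 8), NFKBIA 73.0 (SD 22.1), CXCL8 45.3 (SD 51.3), CCL2 18.6 (SD 14.3), CXCL2 17.7 (SD 15.9), TNFAIP3 8.71 (SD 7.61) and CXCL3 5.99 (SD 3.72). In monolayers the order was NFKBIA at 49.9 (SD 26.7, n = 8), CXCL1 at 33.4 (SD 27.1), CCL2 at 14 (SD 6.11), CXCL8 at 12.01 (SD 8.73), CXCL2 at 9.23 (SD 11.6), TNFAIP3 at 3.53 (SD 2.22) and CXCL3 at 2.72 (SD 1.91). IL6, CCL20 and IL1A averaged at most 1.12 CPM per kb in either culture. The neighbours in both orders were mostly closer to each other than 1 SD, so the order separates only the abundant from the rare genes.

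The difference between the spheroid replicates was tested over the 4 times, in a comparison added after the values had been seen, with the replicate number of each culture as a block. On the list, 4 genes were called higher in spheroid replicate 1. They were CXCL1 (log2 fold change 3.10 ± 0.34 SE, adjusted p = 0.00093), TNFAIP3 (3.22 ± 0.43, adjusted p = 0.0027), CXCL2 (3.04 ± 0.51, adjusted p = 0.011) and CXCL8 (3.45 ± 0.61, adjusted p = 0.024). Of all 17822 genes tested, 1.61% were called in this comparison, 209 higher and 78 lower in replicate 1, against 4 of the 10 genes here. CXCL3 (1.87 ± 0.48, adjusted p = 0.090), CCL2 (1.28 ± 0.31, adjusted p = 0.071) and IL6 (3.72 ± 0.90, adjusted p = 0.070) did not pass. DESeq2 called all 3 of these and CCL20 as well, and it called more of all genes than edgeR did. NFKBIA had 0.47 ± 0.53 (adjusted p = 0.86). Across all genes, 4.41% had the 4 spheroid libraries of replicate 1 above all 4 of replicate 2, and 7 of these 10 genes did. The calls of CXCL1 and TNFAIP3 held with any 1 of the 8 spheroid libraries left out (adjusted p 0.0056 to 0.013 and 0.0040 to 0.034), whereas CXCL2 lost its call without 6 of the 8 (0.038 to 0.11) and CXCL8 without 7 of the 8 (0.044 to 0.24). The 4 libraries of a replicate number are 4 times of what the labels tag as 1 batch, so the test sets these series against each other and does not rest on further cultures.

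In monolayers the same comparison called 0 of the 10 genes with edgeR (CXCL1 without the filter on low counts) and 0 with DESeq2, while 1.28% of all genes were called, 35 higher and 194 lower in replicate 1. CXCL1 had the only unadjusted p under 0.05, at a log2 fold change of −0.88 ± 0.33 (adjusted p = 0.27), followed by IL6 at 1.69 ± 0.83 (adjusted p = 0.45) and TNFAIP3 at 0.83 ± 0.42 (adjusted p = 0.46). The replicate difference of spheroids minus that of monolayers was called for CXCL1 alone among the 10 (3.99 ± 0.47, adjusted p = 0.0023), with 0.46% of all genes called. CXCL2 came next (3.64 ± 0.71, adjusted p = 0.057). DESeq2, which called more of all genes here too, called CXCL1, CXCL2, CXCL3, CXCL8, CCL2 and TNFAIP3. The leukocyte marker sum was 79.7 to 112 CPM in spheroid replicate 1 and 51.4 to 108.5 CPM in spheroid replicate 2. These ranges overlapped, but the sum was higher in replicate 1 at each time, right after NEE only slightly (112 against 108.5 CPM). CD14, its largest part, did not overlap, at 55.4 to 85.5 CPM in replicate 1 and 29 to 46.4 CPM in replicate 2. Before NEE, right after it and at 2 h the sum was higher in replicate 1 only through CD14. Right after NEE most other markers went the other way. PRF1 was at 7.43 CPM in replicate 1 and 16.6 CPM in replicate 2, GNLY at 3.87 and 9.80 CPM and GZMB at 2.12 and 7.11 CPM. Besides CD14, only ITGAM, CSF1R and CD3G were then higher in replicate 1. The epithelial marker sum was lower in replicate 1, at 40120 to 43970 CPM against 57390 to 67690 CPM. The part of these markers in the result was not tested.

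**Figure D2:**
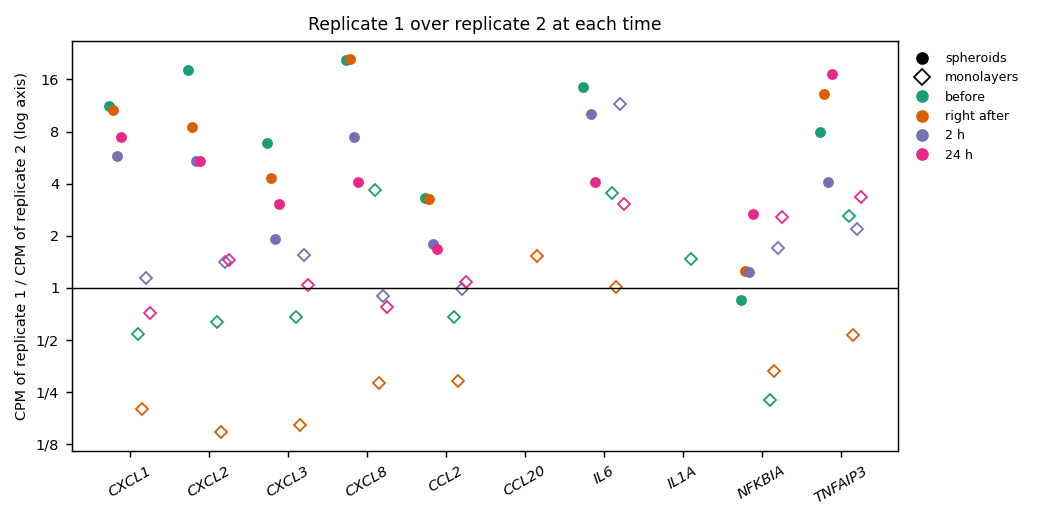
CPM of replicate 1 divided by CPM of replicate 2 for each gene at each time, on a log axis, with filled circles for spheroids, open diamonds for monolayers and colour for time. Points are drawn only where both libraries had more than 3 counts. Every spheroid circle lies above 1 except NFKBIA before NEE, whereas monolayer diamonds lie on both sides of 1 for each gene with 4 of them but IL6.

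Some other genes of the pathway were called between the spheroid replicates, where 1.61% of all genes were called. Of 22 NF-kB target and feedback genes in a list, 6 were called higher and 0 lower in spheroid replicate 1, and the list's median log2 fold change was 0.80, against 0.02 over all genes and 3.07 for the 10 genes. The first 3 by p were LAMB3, a laminin chain (1.89 ± 0.18, adjusted p = 0.00036), SOD2, the mitochondrial superoxide dismutase (3.36 ± 0.41, adjusted p = 0.0032), and PLAU, which encodes urokinase (1.08 ± 0.16, adjusted p = 0.0048). The other 4 lists had 1 call each. Among 16 subunits, inhibitors and kinases of NF-kB, 1 was higher, the kinase gene IKBKE (1.41 ± 0.17, adjusted p = 0.0013). Of 15 other chemokines and cytokines tested, 1 was higher, CXCL5, a further CXCR2 ligand (1.35 ± 0.27, adjusted p = 0.026). Of 20 receptors and adaptors tested, 1 was lower, IL6R, the receptor of IL6 (−1.82 ± 0.39, adjusted p = 0.040), and the median of that list was −0.01. Of 9 regulators of cytokine mRNA decay, 1 was higher, ZC3H12A (2.55 ± 0.36, adjusted p = 0.0034), whose RNase product cleaves transcripts such as that of IL6. In monolayers the replicate comparison called 1 gene over these 5 lists, IL18 (−1.25 ± 0.20, adjusted p = 0.015). The difference between the cultures itself was called for LAMB3 (2.35 ± 0.25, adjusted p = 0.0014), IKBKE (1.52 ± 0.23, adjusted p = 0.015), ZC3H12A (2.65 ± 0.50, adjusted p = 0.044) and SOD2 (3.10 ± 0.55, adjusted p = 0.04996), the last at the threshold.

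The comparisons in time set later libraries against earlier ones, and in them NEE and time since the start cannot be told apart. Within each replicate number CXCL8 was higher at 2 h than before NEE in 4 of 4 pairs, by 1.23 to 5.09 times, CCL2 in 4 of 4, by 1.32 to 4.17 times, and TNFAIP3 in 4 of 4, by 1.25 to 2.41 times. Among all genes tested 5.41% were higher in all 4 of these pairs. Between 2 h and 24 h 6 of the 10 genes were lower in all 4 pairs, which was so for 7.28% of all genes. At 24 h CXCL8 was at 0.130 to 0.327 of its 2 h level, CCL2 at 0.235 to 0.558, TNFAIP3 at 0.121 to 0.505, CXCL1 at 0.379 to 0.599, CXCL2 at 0.309 to 0.506 and CXCL3 at 0.444 to 0.745. By 24 h CXCL1 stood below its level before NEE in 4 of 4 pairs, at 0.420 to 0.888 of it, and so did TNFAIP3, at 0.291 to 0.629, against 4.52% of all genes. NFKBIA alone was higher right after NEE than before in 4 of 4 pairs, by 1.11 to 2.11 times, against 4.69% of all genes. One of the 4 pairs in each comparison with the time before NEE starts from the monolayer library with leukocyte transcripts, which had the lowest NFKBIA level of all lysates. Without that pair NFKBIA right after NEE was higher in 3 of 3, by 1.11 to 1.62 times, as was CCL2, by 1.02 to 1.79 times, and 11.2% of all genes were higher in all 3. At 2 h CXCL8, CCL2 and TNFAIP3 were higher in 3 of 3, against 11.8% of all genes, and at 24 h CXCL1 and TNFAIP3 were lower in 3 of 3, against 8.86%.

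With the filter on low counts, edgeR called none of the 10 genes in any comparison of times. Without it CXCL8 and CCL2 were called at 2 h against the earlier times, and CXCL1, CXCL2, CXCL8, CCL2 and TNFAIP3 at 24 h against 2 h. The fit without the filter also called more of all genes in both comparisons, as counted in the closing section on processing. At 2 h against the 2 earlier times in both cultures, 0 of 10 were called by edgeR and 0 by DESeq2, and 0.0729% of all genes (13, all higher) by edgeR. The smallest p was that of CCL2, the only one with an unadjusted p under 0.05, at a log2 fold change of 0.92 ± 0.40 SE (adjusted p = 0.96). IL6 had 1.18 ± 0.99 (adjusted p = 1) and CXCL8 had 0.98 ± 0.85 (adjusted p = 1). The 10 genes had a median of 0.64, with 7 of 10 above 0, against −0.001 for all genes. The order of IL6 and CXCL8 rested on single libraries: without spheroid replicate 1 at 2 h IL6 came to −0.06 and CXCL8 to −0.07, and without monolayer replicate 1 at 2 h IL6 came to −0.12. Blocking on replicate within culture, added after the spheroid replicates were seen to differ, gave CCL2 1.06 ± 0.25 (adjusted p = 0.26) and CXCL8 1.25 ± 0.46 (adjusted p = 0.75), still not called. In that fit the difference between the replicate levels is no part of the error.

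At 24 h against 2 h in both cultures, all 10 genes had a log2 fold change below 0, with a median of −1.45 against 0.02 for all genes. Again 0 of 10 were called by edgeR or by DESeq2, with 0.0561% of all genes (10, all lower) called, and CCL2 and CXCL8 had an unadjusted p under 0.05. CCL2 had −1.52 ± 0.48 (adjusted p = 0.85), CXCL8 −2.64 ± 1.08 (adjusted p = 1.00) and TNFAIP3 −1.61 ± 0.99 (adjusted p = 1.00). With the replicate block within culture CCL2 had −1.498 ± 0.31 (adjusted p = 0.14), TNFAIP3 −2.03 ± 0.41 (adjusted p = 0.14), CXCL8 −2.41 ± 0.57 (adjusted p = 0.29) and CXCL1 −1.15 ± 0.32 (adjusted p = 0.39).

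**Figure D3:**
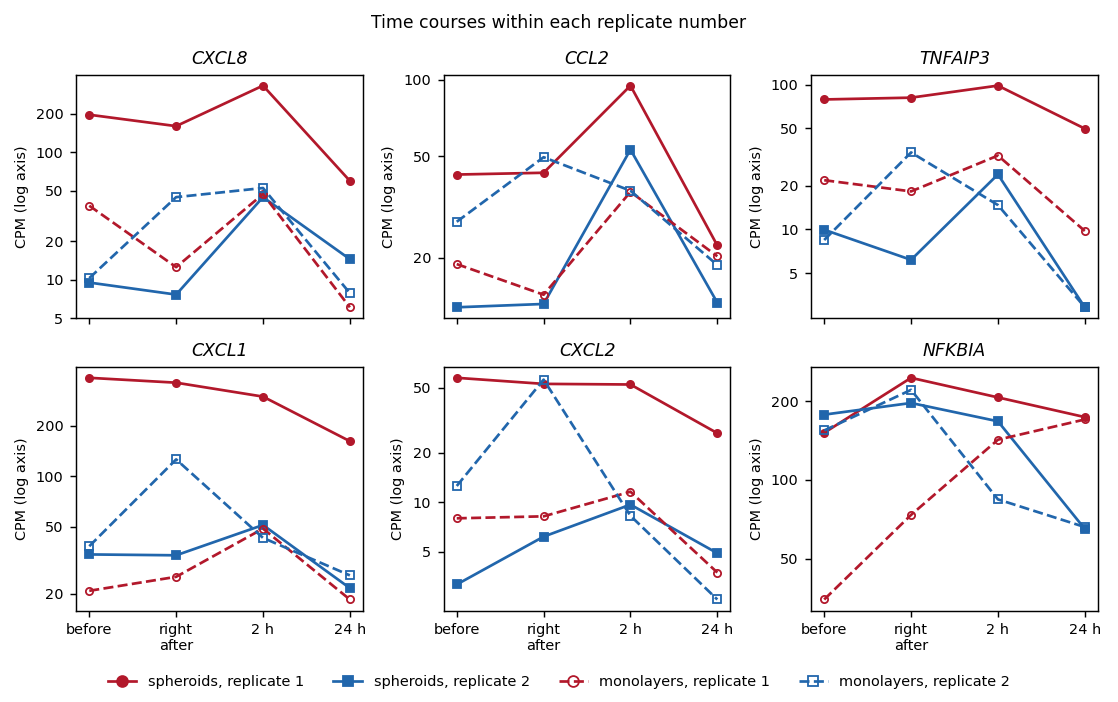
CPM of 6 genes on a log axis over the 4 times, with 1 line for each replicate of spheroids (solid, filled) and monolayers (dashed, open). CXCL8 and CCL2 are higher at 2 h than before NEE and lower again at 24 h in all 4 lines, while CXCL1 and CXCL2 of spheroid replicate 1 decline over the course.

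Within single cultures edgeR called 0 of the 10 genes at any later time against before NEE, with 0 of them at an unadjusted p under 0.05 in each of these 6 comparisons, and DESeq2 called 0 as well. The 3 comparisons in monolayers, which use the monolayer library with leukocyte transcripts, also had 0 called without it. Without the filter on low counts edgeR called CXCL1 in monolayers right after NEE, and CXCL8 at 24 h in monolayers (−1.74, adjusted p = 0.0011) and in spheroids (−1.59, adjusted p = 0.019). More of all genes were called in these 3 comparisons as well. In monolayers right after NEE against before, 0% of all genes were called (401 at an unadjusted p under 0.05). CXCL2 had a log2 fold change of 1.69 ± 1.37 (adjusted p = 1), which came to −0.28 without monolayer replicate 2 right after NEE, the library with 55.9 CPM. CCL20 had 10 counts right after NEE against 0 before, at least 4.09-fold higher, and IL1A had 0 counts right after against 29 before, at least 7.89-fold lower, both with 3 counts over the group as the floor and neither called (adjusted p = 1). In monolayers at 2 h against before, 0.00561% of genes (1) were called. CCL2 had 0.70 ± 0.67 and CXCL8 1.10 ± 1.45 (adjusted p = 1 for both), and CCL20 had 5 counts against 0, at least 1.85-fold higher. At 24 h against before, 0% of genes were called (788 at an unadjusted p under 0.05). CXCL8 had −1.76 ± 1.499 and CXCL2 −1.69 ± 1.40 (adjusted p = 1 for both), and IL1A had 1 count against 29, a ratio of 0.0358 with an exact 95% interval of 0.00088 to 0.216 for counting error.

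In spheroids right after NEE against before, 0% of genes were called (359 at an unadjusted p under 0.05). NFKBIA had 0.39 ± 0.70 and CXCL8 −0.33 ± 1.43 (adjusted p = 1 for both), and IL1A had 0 counts against 13, at least 4.54-fold lower. At 2 h 0.0112% of genes (2) were called. CCL2 had 1.39 ± 0.68 (adjusted p = 1) and IL6 1.54 ± 1.69 (adjusted p = 1), and IL6 came to −0.97 without spheroid replicate 1 at 2 h. IL1A had 2 counts at 2 h against 13 before. At 24 h 0% of genes were called (445 at an unadjusted p under 0.05). CXCL8 had −1.58 ± 1.47, CCL2 −0.71 ± 0.67 and CXCL1 −1.30 ± 1.33 (adjusted p = 1 for each), and without spheroid replicate 1 before NEE these 3 came to 1.89, 0.43 and 1.34. The change at 2 h in spheroids minus that in monolayers was called for 0% of genes and 0 of 10 (555 of all genes at an unadjusted p under 0.05, 0 of the 10, and 0 of the 10 by DESeq2). CCL2 had 0.69 ± 0.94 there (adjusted p = 1.00), CCL20 −3.78 ± 3.63 and IL1A −2.00 ± 3.61, both of the last from few counts.

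The rest of the pathway stayed mostly below the threshold in time. One of 16 subunits, inhibitors and kinases was called higher at 2 h against the earlier times, MAP3K14 (1.48 ± 0.24, adjusted p = 0.043), which encodes the kinase NIK of the non-canonical branch. The medians of the other lists at 2 h were −0.01 for 22 target and feedback genes, 0.03 for 15 other chemokines and cytokines, −0.08 for 20 receptors and adaptors and 0.03 for 9 decay regulators, and 0 of their genes were called. At 24 h against 2 h 0 genes of these 5 lists were called, 20 of the 22 target and feedback genes had a value below 0, and their median was −0.44 against 0.02 for all genes.

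Spheroids and monolayers were compared over the 4 times. CXCL1 was the only one of the 10 genes called higher in spheroids, at a log2 fold change of 2.14 ± 0.68 SE (adjusted p = 0.047), while 19.9% of all genes were called, 1788 higher and 1754 lower. Its 8 spheroid libraries ran from 21.7 to 384.1 CPM with a median of 106.4, against 18.5 to 125.9 CPM with a median of 32.1 in the 8 monolayer libraries, so the groups overlapped. CXCL8 (2.09 ± 0.75, adjusted p = 0.071) and CXCL3 (1.29 ± 0.48, adjusted p = 0.076) did not pass with edgeR and did with DESeq2. All 10 genes had a log2 fold change above 0, with a median of 1.37 against −0.02 for all genes. For IL1A, with many libraries at 0, the mean level went the other way, at 0.203 CPM in spheroids and 0.272 CPM in monolayers. A share of 1 in 10 called lay below the share over all genes. The call of CXCL1 was lost without any 1 of the 16 libraries (adjusted p 0.057 to 0.19, log2 fold change 1.48 to 2.54), including the one with leukocyte transcripts (2.04, adjusted p = 0.17), and with the replicate number as 1 block over both cultures (1.49 ± 0.76, adjusted p = 0.20).

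Blocking on replicate within culture, 4 of the 10 were called higher in spheroids, with 23.9% of all genes called. These were CXCL1 (1.49 ± 0.22, adjusted p = 0.00054), CXCL3 (1.05 ± 0.32, adjusted p = 0.034), CXCL8 (1.30 ± 0.39, adjusted p = 0.037) and TNFAIP3 (0.86 ± 0.28, adjusted p = 0.044). The level of each replicate series is fixed in that fit and adds nothing to the error. Taken singly, spheroid replicate 2 had CXCL1 at 21.7 to 51.3 CPM, within the 18.5 to 125.9 CPM of the monolayers, and spheroid replicate 1 had it at 161.5 to 384.1 CPM, above all monolayers.

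**Figure D4:**
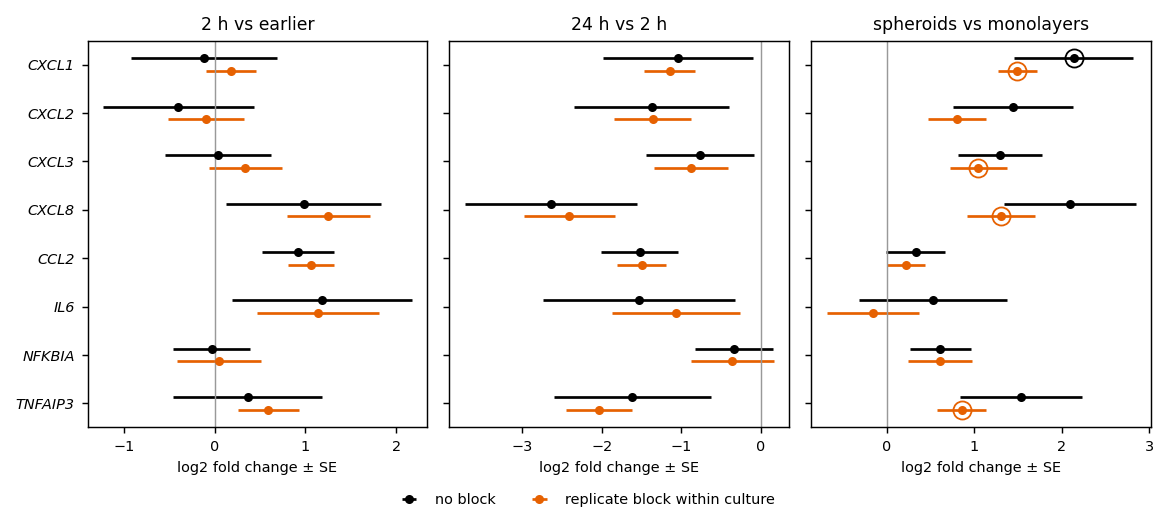
Log2 fold change ± SE of 8 of the 10 genes in 3 comparisons, without a block (black) and with the replicate number as a block within each culture (orange), with rings around called values. CXCL1 is ringed in both fits of spheroids against monolayers, CXCL3, CXCL8 and TNFAIP3 only with the block, and 0 values are ringed in the comparisons of times. CCL20 and IL1A, with libraries at 0, are not drawn.

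Other genes of the pathway were also called between the cultures, where 19.9% of all genes were called, and nothing particular to the pathway is read from these counts. In the list of target and feedback genes 5 of 22 were higher and 1 lower in spheroids, with TNIP1, which encodes a partner of A20 (1.36 ± 0.24, adjusted p = 0.0017), LAMB3 (2.36 ± 0.43, adjusted p = 0.0026) and the adhesion gene ICAM1 (3.36 ± 0.71, adjusted p = 0.0066) first by p. Among other chemokines and cytokines 3 of 15 were higher and 1 lower, led by CSF1, a growth factor of macrophages (1.15 ± 0.21, adjusted p = 0.0020), CXCL16 (1.36 ± 0.28, adjusted p = 0.0041) and IL1B (2.54 ± 0.80, adjusted p = 0.039). Of the 16 subunits, inhibitors and kinases 2 were higher, NFKBIZ (1.78 ± 0.56, adjusted p = 0.043) and IKBKE (0.88 ± 0.29, adjusted p = 0.0497), and MAP3K14 was lower (−0.67 ± 0.21, adjusted p = 0.037). Receptors and adaptors had 5 of 20 higher and 1 lower, with TRADD, the adaptor of TNF receptor 1 (1.01 ± 0.23, adjusted p = 0.0070), IL1R1 (0.56 ± 0.14, adjusted p = 0.012) and IRAK1 (−0.40 ± 0.11, adjusted p = 0.022) first. Decay regulators had 1 of 9 higher, ZFP36L2 (1.05 ± 0.35, adjusted p = 0.047), and 1 lower, HNRNPD (−0.79 ± 0.15, adjusted p = 0.0030). The medians of these 5 lists ran from −0.32 to 0.18, against −0.02 for all genes.

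NEE-sampled RNA was compared with the mean of the monolayer lysates. TNFAIP3 was nearly absent from it, at 0.147, 0 and 0 CPM in the 3 NEE-sampled libraries, against 2.90 to 34.1 CPM (median 16.5) in the 8 monolayer libraries. That is 2 counts of 46451950 against 2825 counts, a ratio of 0.00245 with an exact 95% interval of 0.000296 to 0.00885 for counting error, and the log2 fold change was −7.97 ± 0.94 SE (adjusted p = 3.5e-05). Of 6976 genes whose monolayer mean was at least that of TNFAIP3 (17.8 CPM), 3 (0.043%) had 2 or fewer counts over the NEE-sampled libraries. IL6 was at 0 in all 3 NEE-sampled libraries and at 0.297 to 3.45 CPM (median 0.956) in monolayers, at least 22.6-fold lower with 3 counts over the group as the floor (adjusted p = 0.0061). Neither gene overlapped between the groups, and the share of all genes without overlap was not counted.

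CXCL8 was at 9.69, 6.08 and 5.24 CPM in NEE-sampled RNA, against 6.09 to 52.4 CPM (median 25.3) in monolayers, a log2 fold change of −1.33 ± 0.47 (adjusted p = 0.034). CXCL2 was at 5.06, 1.40 and 1.30 CPM, against 2.55 to 55.9 CPM (median 8.23), a log2 fold change of −1.64 ± 0.63 (adjusted p = 0.048). Both overlapped between the groups. CXCL1, at 15.9, 20.8 and 15.0 CPM against 18.5 to 125.9 CPM, was not called (−0.85 ± 0.41, adjusted p = 0.11). NFKBIA had 95.2, 51.2 and 41.9 CPM against 34.9 to 221 CPM (−0.57 ± 0.50, adjusted p = 0.36), CCL2 had 26.3, 11.5 and 12.1 CPM against 14.3 to 49.7 CPM (−0.37 ± 0.39, adjusted p = 0.46), and CXCL3 had 8.37, 3.07 and 3.08 CPM against 2.55 to 15.8 CPM (0.10 ± 0.55, adjusted p = 0.91). IL1A and CCL20 were at 0 in all 3 NEE-sampled libraries. IL1A had 46 counts over the monolayers, at least 4.44-fold lower in NEE-sampled RNA, and CCL20, which was not tested, had 15, at least 1.45-fold lower.

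Of the 9 genes tested 4 were called, 0 higher and 4 lower. Counted in either direction, this share was close to the 48.6% of all 17067 genes called, 3847 higher and 4440 lower. The share called lower alone is not compared here. The median of the 9 was −1.33 and that of all genes −0.20. TNFAIP3 and IL6 held their calls in all 11 fits with 1 library left out (highest adjusted p 0.00039 and 0.018). CXCL8 lost its call without 4 of the 11 libraries, namely monolayer replicate 2 right after NEE (−1.04, adjusted p = 0.052), monolayer replicate 2 at 24 h (−1.26, adjusted p = 0.051) and NEE-sampled replicates 2 (−1.21, adjusted p = 0.11) or 3 (−1.16, adjusted p = 0.12). CXCL2 lost its call without 7 of the 11 (adjusted p 0.0100 to 0.16 over all 11). Against monolayers right after NEE only, CXCL1 was called too, and against monolayers before NEE only, TNFAIP3 and IL6 remained. The leukocyte sum was 13.4 to 27.4 CPM in NEE-sampled RNA and 36.3 to 641.6 CPM in monolayers, and its part in the result was not tested. RNA of the NEE-sampled libraries was purified with another kit, per the labels, so the kit and the way of sampling cannot be told apart.

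Pathway genes were called in both directions in NEE-sampled RNA, as genes were over the whole table, of which 48.6% were called. Of 16 subunits, inhibitors and kinases 5 were higher and 6 lower, with the kinase gene TBK1 at −2.21 ± 0.22 (adjusted p = 1.2e-05), BCL3, an atypical IkB, at 4.15 ± 0.45 (adjusted p = 1.8e-05) and MAP3K14 at −2.27 ± 0.32 (adjusted p = 0.00012). Of 21 target and feedback genes tested 2 were higher and 8 lower, first PLAU (−3.31 ± 0.19, adjusted p = 5.7e-07), TNIP1 (1.78 ± 0.18, adjusted p = 9.6e-06) and TNIP2 (2.24 ± 0.31, adjusted p = 0.00011). Other chemokines and cytokines had 2 of 13 higher and 6 lower, first LIF, a cytokine of the IL-6 family (−4.09 ± 0.42, adjusted p = 1.3e-05), CCL5 (−5.30 ± 1.25, adjusted p = 0.0041) and CXCL16 (1.41 ± 0.34, adjusted p = 0.0050). Receptors and adaptors had 4 of 19 higher and 10 lower, first IRAK1 (1.71 ± 0.14, adjusted p = 3.0e-06), TRADD (2.29 ± 0.27, adjusted p = 3.5e-05) and IL1RAP (−5.07 ± 0.62, adjusted p = 4.6e-05). Decay regulators had 5 of 9 higher and 2 lower, first ZFP36L1 (−1.58 ± 0.18, adjusted p = 2.3e-05), KHSRP (2.87 ± 0.34, adjusted p = 3.4e-05) and ZFP36L2 (1.69 ± 0.32, adjusted p = 0.00094).

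The genes vary together to unequal degrees. On log2(CPM + 1) over the 16 lysates, with no p because the libraries share cultures and replicate numbers, Pearson's r with CXCL8 was 0.896 for TNFAIP3, 0.869 for CXCL1, 0.859 for CXCL3, 0.851 for CXCL2, 0.845 for CCL20, 0.811 for CCL2, 0.733 for IL6, 0.279 for NFKBIA and 0.126 for IL1A. The 4 libraries of spheroid replicate 1 stand apart in these genes and carry part of this. Over the other 12 libraries r was 0.745 for CCL2, 0.741 for TNFAIP3, 0.622 for CXCL2, 0.618 for CXCL3, 0.579 for CXCL1, 0.339 for IL6, 0.329 for CCL20, 0.233 for IL1A and −0.121 for NFKBIA. After each replicate series was centred on its own mean, CXCL1 and CXCL2 still had an r of 0.870, CXCL1 and TNFAIP3 0.869, CXCL8 and CCL2 0.804, and CXCL8 and NFKBIA −0.057.

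Of 10084 genes with a mean of at least 5 CPM over the lysates, and with the genes of the list left out of the search, the 5 with the highest r with CXCL8 over the 16 libraries were TCIM (0.916), the glucose transporter gene SLC2A3 (0.906), PTGS2, which encodes cyclooxygenase-2 (0.905), ZC3H12A (0.889) and the lipid phosphatase gene PLPP3 (0.881). Over the 12 libraries without spheroid replicate 1 these values were 0.794, 0.815, 0.863, 0.729 and 0.675. Spearman's rho over the 16 was 0.926, 0.891, 0.947, 0.824 and 0.835, and without the libraries farthest from the median of CXCL8, spheroid replicate 1 at 2 h and monolayer replicate 1 at 24 h, r was 0.877, 0.905, 0.850, 0.870 and 0.888. PTGS2 had 180.0, 186.9, 347.2 and 88.1 CPM over the 4 times in spheroid replicate 1 and 59.4, 57.2, 157.8 and 70.7 CPM in spheroid replicate 2. In monolayers PTGS2 had 68.3, 67.3, 177.9 and 39.0 CPM in replicate 1 and 47.7, 80.0, 189.9 and 40.5 CPM in replicate 2, so that in all 4 series it was at its highest at 2 h, as CXCL8 was.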

How the data were processed

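RNA of A549 cells was sequenced from 16 lysate and 3 NEE-sampled Smart-Seq2 libraries. Each deposited file gives the authors' raw counts for 1 library. The submitters' processing notes name GRCh38 as the build and FastQC, Trimmomatic, HISAT2 and featureCounts as the tools. The sources used here state no versions, annotation release, strand setting or treatment of multiply mapped reads, so antisense overlaps and near-identical genes such as CXCL1, CXCL2 and CXCL3 are uncertain.

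The count test was that of edgeR 4.0.16, run under R 4.3.3 (TMM scaling, low-count filtering by filterByExpr, quasi-likelihood tests with robust estimates, Benjamini-Hochberg adjustment over all genes tested). The lysate fit held 8 groups, 17822 genes and 8 residual degrees of freedom, with a biological coefficient of variation of 0.518. The fit for NEE-sampled RNA held 3 NEE-sampled and 8 monolayer libraries, 17067 genes and 6 residual degrees of freedom, with a coefficient of 0.519. All 10 genes passed the filter in the lysate fit and 9 in the other, without CCL20. CPM are counts over the library total, and fold changes use TMM-scaled libraries. The alternatives were RLE scaling, no filter, a filter of 5 CPM in 2 libraries, DESeq2 1.42.0, the replicate number as a block, fits of only the groups compared, other baselines for NEE-sampled RNA and leaving out each library in turn. The block within culture, the comparisons between replicates and the values without single same-number pairs were added after the data were seen.

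The labels' batch tag equals the replicate number, so the number was taken to pair lysate libraries. Across 10089 genes, the deviations from the group mean of 2 libraries with the same number correlated at −0.256 to 0.471 (28 pairs, median 0.202, 19 pairs over 0.1). No 2 libraries of a group were duplicates (11 pairs, mean chi-square per gene 38.3 to 229). P-values measure the spread between these libraries. All 10 genes were described in each library, with statistics for the called ones or else the 3 with the smallest p, and from each other list at most 3 called genes were named. The 10 genes and the other lists were chosen with earlier results of these data known. The procedure was also run on simulated data, but the share of changes it recovered is not given here. Values were handled in Python 3.11.15 with pandas 2.3.3 and drawn with matplotlib 3.10.9.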

Additional observations from a re-analysis of the deposited data

Results flagged for a closer look

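The difference between replicate 1 and replicate 2 of CXCL1 was larger in spheroids than in monolayers by 3.99 on the log2 scale (edgeR, adjusted p = 0.0023). This comparison was added after the values had been seen. The 4 times of a replicate number come from what the labels tag as 1 batch, so the test does not rest on further cultures. At each of the 4 times spheroid replicate 1 was 5.79 to 11.2 times as high as spheroid replicate 2, whereas in monolayers the ratio was 0.201 to 1.14. Leaving out any 1 of the 16 libraries kept the call, with values of 3.53 to 4.36 and adjusted p of 0.00025 to 0.039.

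In its first step after NEE, CXCL1 was slightly lower than before in both spheroid replicates and higher in both monolayer replicates. How many of all genes moved this way was not counted. The mean log2 ratio of spheroids minus that of monolayers was −1.03, and this difference was not tested. It came to −0.32 without the pair of monolayer replicate 2, and to −1.74 without that of monolayer replicate 1. The pair of monolayer replicate 1 starts from the library with leukocyte transcripts, so for monolayers the −0.32 rests on that library. The spheroid ratios were close to 1, at 0.936 and 0.988. The monolayer ratios were 1.21 in replicate 1 and 3.28 in replicate 2.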

How the results depend on the processing

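Depth limits the values of CCL20, IL1A and IL6, which lay near or below the floor of 3 counts in many libraries. RLE scaling kept every count of the 10 genes called within 1.5 times. Of the single values of the 10 genes under an alternative, 459 kept direction and side of the threshold, 49 lost a call, 8 gained one and 14 changed sign. The causes were not tested.

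Without the filter on low counts, genes of the list called came to 1 (monolayers right after NEE), 1 (monolayers 24 h), 1 (spheroids 24 h), 2 (2 h against earlier), 5 (24 h against 2 h), 7 (spheroids against monolayers), 8 (spheroid replicates), 1 (monolayer replicates) and 6 (replicate difference between cultures), and all genes called to 52, 99 and 132 in monolayers and 1, 56 and 16 in spheroids at the 3 later times, 113, 117, 35 (interaction at 2 h), 683, 635 and 397. DESeq2 called 3 of the list for spheroids against monolayers, 8 for the spheroid replicates and 6 for the replicate difference, and of all genes 7, 41 and 41 in monolayers, 1 and 39 in spheroids right after NEE and at 2 h, 85 at 2 h against earlier, 61 at 24 h against 2 h, 3 in the interaction, 781, 897 and 431. Only the groups compared gave 0 genes in monolayers at 2 h, 0 in spheroids at 2 h, 7 at 2 h against earlier and 2 at 24 h against 2 h; for spheroids against monolayers this is the fit of all lysates.

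With 1 replicate block over both cultures, 0 of the list were called for spheroids against monolayers and 2 for NEE-sampled RNA, where a shared number has no known meaning. The replicate block within culture gave 0 genes in monolayers at 2 h, 5 in spheroids at 2 h, 26 at 2 h against earlier, 19 at 24 h against 2 h, and 4 of the list for spheroids against monolayers; it changed no other call of the list. For NEE-sampled RNA, 2 of the list were called with the stricter filter, 2 against monolayers before NEE, and 2 with the 3 libraries summed into 1, where 5030 genes were called; the lone library is then assumed to vary like the others.

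Leaving out 1 library at a time, all genes called ranged from 0 to 38, 0 to 48 and 0 to 102 in monolayers, 1 to 8 and 0 to 1 in spheroids at 2 h and 24 h, 6 to 28 at 2 h against earlier, 1 to 16 at 24 h against 2 h, 0 to 2 in the interaction, 119 to 193 between spheroid replicates, 39 to 443 between monolayer replicates and 41 to 164 for the replicate difference. Genes of the list called ranged from 0 to 1 for spheroids against monolayers, 2 to 5 for NEE-sampled RNA, 2 to 4 between spheroid replicates and 1 to 2 for the replicate difference. A group left with 1 library is assumed to vary like the others.

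Signs turned in these log2 fold changes, none of them called with the filter: CXCL2 in monolayers right after NEE (−0.28 to 2.50), CXCL8 in spheroids right after NEE (−3.86 to 3.13), IL1A (−5.93 to 3.34) and IL6 (−0.97 to 4.49) in spheroids at 2 h, CXCL8 (−2.86 to 1.89), CCL2 (−1.34 to 0.43) and CXCL1 (−3.30 to 1.34) in spheroids at 24 h, IL6 (−0.12 to 3.17) and CXCL8 (−0.074 to 1.87) at 2 h against earlier, and CCL20 (−11.02 to 2.88) and IL1A (−5.36 to 3.97) in the interaction.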
